A study of Homo sapiens with 2 samples.

Results

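The genes described here encode the translation initiation factors and the regulators filed beside them under the name EIF. They were taken as every transcript probe on the arrays whose gene name starts with EIF followed by a digit from 1 to 6. This gave 49 genes of the 30982 distinct gene names on the arrays, measured by 85 probes on 94 spots. No measured value was used in the choice. The expression of these genes was compared between 1 array of siRNA-untreated Y79 cells and 1 array of Y79 cells harvested 48 h after treatment with siRNA against Ep-CAM (gene TACSTD1), an epithelial adhesion molecule. Y79 is an established human retinoblastoma line that grows in suspension. The study's methods give both cultures a prior exposure to azacytidine, a DNA demethylating agent, which the sample labels do not mention. The labels call the control untreated, so that the siRNA itself and the handling of transfection cannot be told apart from the loss of Ep-CAM. With 1 array per condition there is no replicate error, so nothing was tested, and each difference below is one between these 2 arrays.

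Initiation is the step of translation at which a ribosome is brought to the start codon of an mRNA. The factor eIF2 carries the initiator tRNA to the small ribosomal subunit, eIF3 holds the assembling complex together, and the eIF4 factors bind the cap of the mRNA, recruit the ribosome and unwind the leader. Growth signals act on the pathway mainly by freeing eIF4E from its inhibitors, the 4E-BPs, and stress acts on it mainly by phosphorylation of the alpha subunit of eIF2. The array names are partly old. The EIF3S names are subunits of eIF3, and EIF2C1 to EIF2C4 are the Argonaute genes AGO1 to AGO4, which work with small RNAs in gene silencing and are not initiation factors.

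Each probe is a 60-base oligonucleotide, and its level is given as the processed signal, the background-subtracted brightness of the spot in arbitrary units as deposited. Brightness differs between probes for reasons other than transcript number, so a probe is compared only with itself on the other array. For the ratio, each array was divided by its median signal over transcript spots, 48.8 in the untreated and 50.0 in the siRNA-treated cells, and the log2 ratio is siRNA-treated over untreated. A probe was called measured where it was well above background and not saturated on both arrays. Of the 85 probes, 64 were measured, 16 were not well above background on either array, 3 were not well above background in the treated cells, and 2 were saturated on both. At least 1 probe was measured in 43 of the 49 genes. For 29149 probes of the whole array a ratio or a bound could be given, and among the EIF probes this held for 66.

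No EIF probe was at least 2-fold higher in the siRNA-treated cells and 4 were at least 2-fold lower (6.06% of 66). Over all probes, 1.28% were at least 2-fold higher and 0.933% at least 2-fold lower. Of the 372 higher probes behind the 1.28%, only 106 lay outside 1 corner of the array, described below. That corner held 10 of the 64 measured EIF probes. The 4 probes belonged to EIF4E3, a cap-binding protein of the eIF4E family, EIF1AY, a scanning factor, EIF2S1, the alpha subunit of eIF2, and EIF5A, which helps the ribosome through difficult peptide bonds. At the thresholds of the series text, a ratio above 1.5 or below 0.55, 0 EIF probes were higher and 7 were lower (10.6%), against 4.04% and 1.7% of all probes. The 3 added by the wider limit were probes of EIF4A1, EIF3S8 and EIF4E. The count of 4 depended on the processing. It was 0 after quantile normalization, with 0.752% of all probes lower, and 2 (3.03%) after subtraction of the median of probes of like brightness, with 0.806% of all probes lower. After normexp background correction it was 21 (32.8%), with 3.81% of all probes lower and the median of all measured probes moved from -0.03 to -0.20.

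The EIF probes also lay lower as a group. Of the 64 measured probes 47 had a log2 ratio below 0 (73.4%), against 55.2% of all 26976 measured probes. Their median log2 ratio was -0.26, and that of all measured probes was -0.03. In 33 of the 43 measured genes the brightest measured probe had a ratio below 0. Without the Argonaute genes the median was -0.34. The spread to set beside these values is technical only. Among 194 probes printed at least 10 times on each array, the SD of the log2 ratio over the spots of a probe had a median of 0.14. The SD over all measured probes was 0.33, and over the EIF probes it was 0.39.

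**Figure D1:**
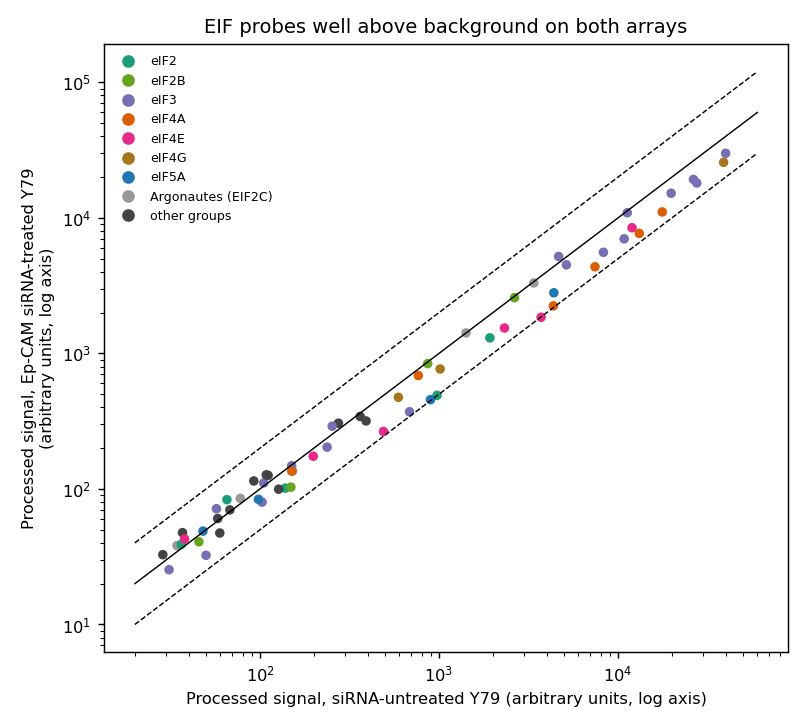
Processed signal of each EIF probe measured on both arrays, in siRNA-untreated (x axis) and Ep-CAM siRNA-treated Y79 cells (y axis), in arbitrary units on log axes, before scaling. One point is 1 probe, coloured by role, without EIF1AY. The solid line marks equal signals and the dashed lines a 2-fold difference. Most bright probes lie between the solid and the lower dashed line, and the weaker ones lie on both sides of the solid line.

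The following sequences are those of the probes at the limit of the 2-fold call, with the other measured probe of the same gene where it differed. They are from the deposited files and run 5′ to 3′ in the sense of the mRNA, with positions on hg17 as the files give them. Where a probe spans more genome than its 60 bases, it crosses an intron and so lies in at least 2 exons. Probes that hold untranslated sequence are shown by 30 of their bases. In the EIF5A pair, capitals mark the ATG at the start of the coding sequence.
EIF4E3, log2 ratio -1.04, all 60 bases (chr3:71816524-71821864, minus strand): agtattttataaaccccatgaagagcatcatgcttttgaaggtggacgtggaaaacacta
EIF4E3, log2 ratio -0.22, first 30 bases (chr3:71811986-71812045, minus strand): ctcccaaccctaagctctgtcaggtgacct
EIF2S1, log2 ratio -1.03, all 60 bases (chr14:66917212-66918098, plus strand): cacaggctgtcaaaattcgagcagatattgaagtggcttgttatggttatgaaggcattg
EIF2S1, log2 ratio 0.07, first 30 bases (chr14:66921162-66921221, plus strand): ccatttatgaaggtttgttcctttgttaaa
EIF5A, log2 ratio -1.01, last 30 bases (chr17:7151766-7153686, plus strand): gttggaatcgaagcctcttaaaATGgcaga
EIF5A, log2 ratio -0.68, all 60 bases (chr17:7153761-7153820, plus strand): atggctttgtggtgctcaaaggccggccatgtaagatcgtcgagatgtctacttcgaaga
EIF4A1, log2 ratio -0.99, all 60 bases (chr17:7421746-7421925, plus strand): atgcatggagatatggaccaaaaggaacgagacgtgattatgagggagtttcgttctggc
EIF1AY, log2 ratio -1.03, all 60 bases (chrY:21088109-21089546, plus strand): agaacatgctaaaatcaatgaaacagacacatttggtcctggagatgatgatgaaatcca

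The eIF4 cap-binding group held 3 measured genes, and the brightest probe of each was lower in the treated cells. EIF4E3 had a signal of 3718 in the untreated and 1848 in the treated cells, 48.5% of the untreated level after scaling. Its second measured probe, shown above, had 198 and 174, a log2 ratio of -0.22, and the remaining probe was not well above background. EIF4E, the cap-binding subunit itself, had 2321 and 1540 at its brightest probe, a log2 ratio of -0.63. A second EIF4E probe had 490 and 266 (-0.92) and lay under the limit of 0.55. A dimmer one had 37.9 and 42.7 (0.14), a ratio smaller than the median SD of repeated spots. Its spot was among the high rows and columns that are examined for position further on. With the median of the spots around it subtracted, it was at 0.09. No direction was read from this dimmer probe, while both brighter EIF4E probes were below 0. EIF4E2, a cap-binding relative of eIF4E that can repress translation, had 11976 and 8457 (-0.54). EIF4ENIF1, which carries eIF4E into the nucleus, was below that level on both arrays. Over the 6 measured probes of the group the median was -0.58, and 5 were below 0.

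The inhibitors of eIF4E did not lie with it. EIF4EBP1 had a signal of 274 in the untreated and 306 in the treated cells (log2 ratio 0.12). EIF4EBP2 had 58.1 and 60.5 (0.03), and its second probe was not well above background. Both ratios were smaller than the SD of repeated spots (0.14). The arrays measure mRNA and not the phosphorylation through which the 4E-BPs are controlled.

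The helicase eIF4A, which unwinds mRNA leaders, had the lowest median of the groups with more than 2 measured probes. All 6 measured probes of its genes were below 0, with a median of -0.76. EIF4A1 had 3 measured probes and these lay close together. The signals were 13147 and 7685 at the brightest (log2 ratio -0.81), 7436 and 4359 at the next (-0.81), and 4353 and 2242 at another (-0.99), which left 50.3% of the untreated level and was the probe next outside the 2-fold limit. The remaining EIF4A1 probe was dim on both arrays, which here means not well above background. EIF4A2, the second eIF4A isoform, had 17665 and 11065 at its brightest probe (-0.71). The other EIF4A2 probes each gave -0.19. One of them is placed by the files on the strand opposite to the brightest probe, and the other on chromosome 10 rather than on chromosome 3 where the gene is.

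EIF4B, which stimulates the helicase, differed from eIF4A in these arrays. Of its 4 measured probes 3 were above 0 (0.15, 0.16 and 0.27), at treated signals of 126, 32.7 and 114, and 1 was at -0.39 (127 and 99.6). All 4 lay in 1 corner of the array, described below. The scaffold eIF4G, which joins the cap-binding protein to the helicase and to eIF3, was lower in each of its 3 genes. EIF4G1 had 1015 and 768 (-0.44) and EIF4G3 had 593 and 474 (-0.36). EIF4G2, a relative that lacks the eIF4E-binding part and serves cap-independent initiation, had 38889 and 25681 (-0.63). A second EIF4G3 probe was not well above background.

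**Figure D2:**
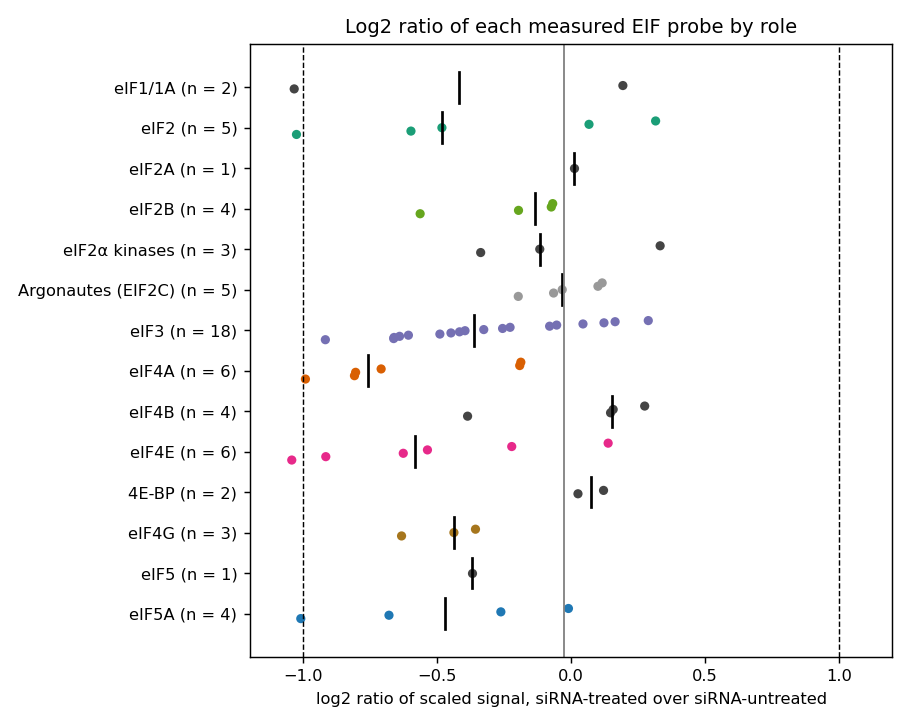
Log2 ratio (x axis, siRNA-treated over untreated) of each of the 64 measured EIF probes, in 1 line per role with the number of probes. Short black bars are the medians of the groups, the grey line is the median of all measured probes (-0.03) and dashed lines mark 2-fold. The eIF4A and eIF4E probes have medians of -0.76 and -0.58, and the 4E-BP, EIF4B and Argonaute probes lie around 0.

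All 12 eIF3 genes named EIF3S were measured. The brightest probe was below 0 in 10 of them, and over 18 measured probes the median was -0.36 with 14 below 0. Several subunits with bright probes were lower by 0.42 to 0.66 on the log2 scale. EIF3S12 (now EIF3K) had 39920 and 29957 (-0.45), and EIF3S6 (EIF3E) had 27536 and 18089 (-0.64) at one probe and 26375 and 19233 (-0.49) at another. EIF3S4 (EIF3G), an RNA-binding subunit, had 19807 and 15197 (-0.42). EIF3S2 (EIF3I) had 10824 and 7003 (-0.66), and EIF3S10 (EIF3A), the largest subunit and a core of the complex, had 8287 and 5571 (-0.61).

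Other eIF3 subunits were not lower to that extent. EIF3S7 (EIF3D), which can itself bind the cap of some mRNAs, had 11264 and 10913 at its brightest probe (-0.08) and 57.1 and 71.5 (0.29) at a weaker one. EIF3S5 (EIF3F) had 4659 and 5196 (0.12) at one probe and 150 and 148 (-0.05) at the other. EIF3S9 (EIF3B), a core scaffold, had 253 and 290.5 (0.16). The bright subunits thus covered a range wider than the spread of repeated spots, from -0.66 at EIF3S2 to 0.12 at EIF3S5. The probes of EIF3S5 at 0.12, EIF3S7 at 0.29 and EIF3S6 at -0.64 were among the high rows and columns examined further on. With the median of the surrounding spots subtracted, they were at 0.16, 0.29 and -0.76. The part of position in these ratios was not tested.

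The eIF3 probe with the lowest ratio belonged to EIF3S8 (EIF3C), at 684 and 371 (-0.92), which left 52.9% of the untreated level. The second EIF3S8 probe had 105 and 111 (0.04). EIF3S1 (EIF3J), which sits loosely on the complex near the start site, had 237 and 203 (-0.26). EIF3S3 (EIF3H) had a weak signal, 31.0 and 25.4 (-0.33). The second EIF3S12 probe had 5150 and 4504 (-0.23). Another probe of EIF3S6 had 17.5 in the untreated cells and was not well above background in the treated, which bounds its ratio at -0.03 or below.

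The pair of EIF3S6IP (EIF3L) probes shows how far 2 nearly equal probes can lie apart. They share 41 bases, in capitals, and both cross an intron.
EIF3S6IP, log2 ratio -0.40 (chr22:36598637-36607289, plus strand): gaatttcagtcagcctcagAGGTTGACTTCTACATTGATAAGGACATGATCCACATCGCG
EIF3S6IP, log2 ratio -0.66 (chr22:36598656-36607308, plus strand): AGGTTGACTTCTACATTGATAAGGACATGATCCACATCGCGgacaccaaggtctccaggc
The first had signals of 103 and 79.9 and the second 50.0 and 32.4. They differed by 0.27 in log2 ratio, while both were below 0.

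Among the eIF2 subunits the brightest probe was lower in all 3 genes. EIF2S1, which carries the phosphorylated site of the stress response, had 975 and 490.5 at the probe past the 2-fold limit, 49.1% of the untreated level. Its other probe, shown above, had 36.4 and 39.0 (0.07). EIF2S2, the beta subunit, was split in the same way, with 1924 and 1302 (-0.60) at the bright probe and 65.4 and 83.3 (0.32) at the weaker one. EIF2S3, the gamma subunit that binds the tRNA, had 138 and 101 (-0.48) at its only probe. EIF2A, a separate protein that can deliver initiator tRNA, had 67.9 and 70.1 (0.01) at its measured probe, and a second probe was not well above background.

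The exchange factor eIF2B, which recharges eIF2 with GTP, was below 0 in each of its 4 measured genes, by little in most of them. EIF2B2 had 2641 and 2579 (-0.07), EIF2B4 had 865 and 841 (-0.07) and EIF2B5, the catalytic subunit, had 45.6 and 40.8 (-0.20). EIF2B3 had 149 and 103 (-0.56) and was the lowest. EIF2B1 was dim on both arrays. Of the kinases that phosphorylate eIF2 alpha, EIF2AK2 (PKR), which answers to double-stranded RNA, had the highest ratio of all EIF probes, at 36.9 and 47.6 (0.33). Under 14 other settings this ratio was between 0.13 and 0.36. For all measured probes with a mean signal of 30 to 60, the 10th to 90th percentile was -0.37 to 0.37. EIF2AK1 (HRI), which answers to a lack of heme, had 363 and 343 (-0.12), and EIF2AK4 (GCN2), which answers to a lack of amino acids, had 392 and 317 (-0.34). EIF2AK3 (PERK), the kinase of the endoplasmic reticulum, was not well above background.

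The scanning factors were hard to read on these arrays. Both probes of EIF1, which guards start codon choice, were saturated, at 68643 and 70749 and at 64865 and 66227, and they share 53 bases, so no ratio was given for the gene with the brightest EIF probes. EIF1AX had 108 and 127 (0.19) at 1 probe and was not well above background at its other probes. The EIF1AY probe had a log2 ratio of -1.03. EIF1AY and EIF1AX are close copies on the Y and X chromosomes, so their transcripts cannot be told apart with certainty by probe name. The spots around the measured EIF1AX probe had a median of 0.29, and those around the measured EIF1AY probe -0.03. With the local median subtracted EIF1AX was at -0.10 and EIF1AY at -1.001, so the 2 probes still differed. The part of position in the difference was not tested. EIF1B, a close relative of EIF1, was not well above background.

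Of the factors of the late steps, EIF5 and EIF5B, only 1 probe was measured. It belonged to EIF5, which makes eIF2 hydrolyse its GTP at the start codon, and had 59.6 and 47.3 (-0.37). The spots around it had a median of -0.22, and with that subtracted it was at -0.15. Another EIF5 probe had 20.9 in the untreated cells and was not well above background in the treated, so that it was at least 1.22-fold lower, and the remaining one was dim on both arrays. EIF5B, which joins the ribosomal subunits, was not well above background at a probe printed on 10 spots. EIF5A had 4381 and 2801 at its bright probe (-0.68) and 896 and 456 at the probe over the start codon, 49.7% of the untreated level, the value next inside the 2-fold limit. EIF5A2, its second isoform, had 98.1 and 83.7 (-0.26) and 48.0 and 48.9 (-0.01). The Argonaute genes lay around 0. EIF2C1 (AGO1) had 3384 and 3312 (-0.07) and 152 and 136 (-0.20), EIF2C2 (AGO2), the member that cuts target RNA, had 1416 and 1417 (-0.03), and EIF2C3 and EIF2C4 had ratios of 0.12 and 0.10.

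Of the 16 genes with 2 or more measured probes, 9 had every measured probe below 0. In 11 of the 16 the brightest probe had a lower ratio than the dimmest one. The probes differed by more than 0.5 in 7 genes, EIF2S1 (1.09), EIF4E (1.05), EIF3S8 (0.96), EIF2S2 (0.91), EIF4E3 (0.82), EIF4B (0.66) and EIF4A2 (0.52). In these genes a value for the gene depends on which probe is read. In 7 others the probes lay within 0.3 of each other.

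**Figure D3:**
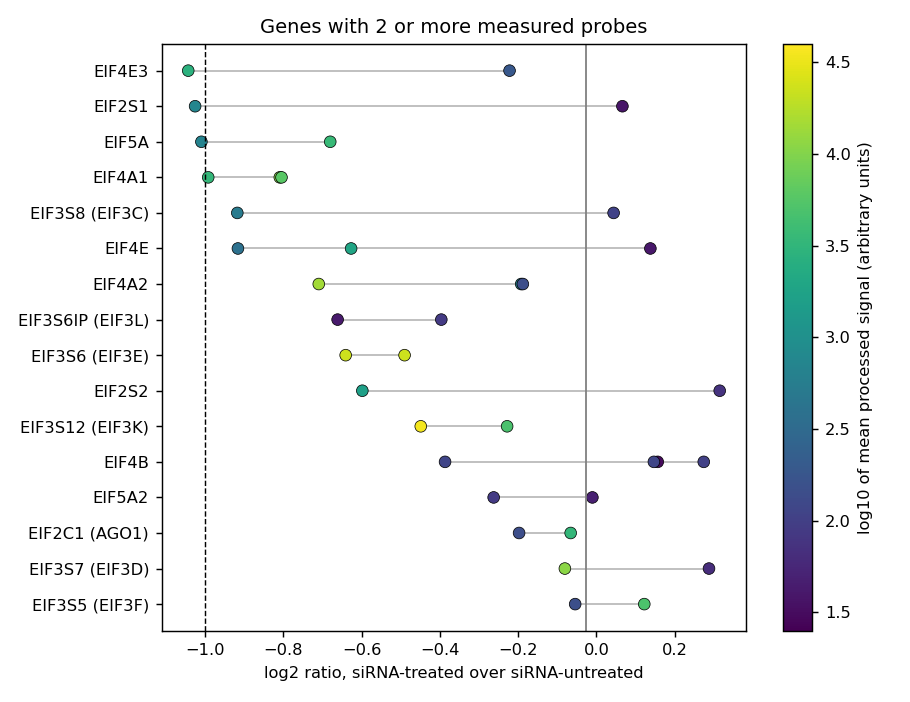
Log2 ratio (x axis) of each measured probe in the 16 EIF genes with 2 or more, 1 line per gene, with current symbols in brackets. Colour is log10 of the mean processed signal, the grey line is the median of all probes (-0.03) and the dashed line marks 2-fold lower. The 3 EIF4A1 probes lie together between -0.99 and -0.81, while those of EIF2S1 and EIF4E span more than 1 log2 unit.

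The ratio of an EIF probe went with its brightness. The limits of brightness used here were chosen after the values were seen. Of the 22 EIF probes with a mean signal of at least 1000, 21 were below 0 (95.5%) with a median of -0.60, the exception being the bright EIF3S5 probe. Of the 17 probes with a mean signal under 100, 7 were below 0, with a median of 0.03. Bright probes of the whole array were also lower. Of 2166 probes with a mean signal of at least 1000, 78.3% were below 0 and the median was -0.24, while probes under 100 had a median of -0.01. The Spearman correlation of mean signal and log2 ratio was -0.55 across the 64 EIF probes and -0.15 across all 26976, given as a description, since the probes share the arrays and the mean signal is made from the same values as the ratio. With the median of probes of like brightness subtracted, the median of the EIF probes was -0.21. The part of brightness in the ratios was not tested.

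**Figure D4:**
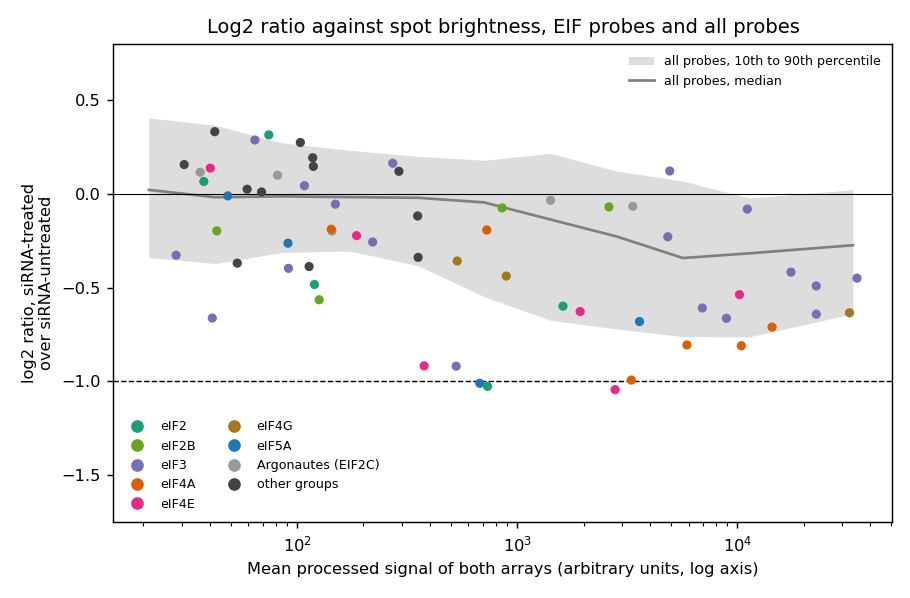
Log2 ratio (y axis) against the mean processed signal of both arrays (x axis, arbitrary units, log axis) for the measured EIF probes without EIF1AY, coloured by role. The grey line and band are the median and the 10th to 90th percentile of all measured probes in bins of brightness. The EIF probes at signals over 1000 lie mostly below the grey line and those under 100 on both sides of it.

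Probes that cross an intron had lower ratios. The median was -0.44 over 27 such EIF probes, 24 of them below 0, and -0.08 over the 37 others, 23 of them below 0. All 4 probes past the 2-fold limit were among the 27. Over all measured probes, 1.14% of those crossing an intron and 0.74% of the others were at least 2-fold lower. The shares below 0 were 60.6% and 54.3%. For all probes the medians were -0.06 and -0.02. At signals of at least 1000 the EIF medians were -0.60 and -0.61, so that there was no such gap among bright EIF probes, and under 1000 they were -0.38 and 0.03. The medians of all probes were -0.30 and -0.21 at signals of at least 1000, and -0.04 and -0.01 under 1000.

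Position on the array was examined since its corner at high row and column numbers held more probes at least 2-fold lower than the rest, 1.64% against 0.637% of measured probes. The corner also held many of the higher probes. Leaving it out took the probes of the whole array at least 2-fold higher from 372 to 106, and those at least 2-fold lower from 272 to 164. The 10 measured EIF probes in the corner had a median of 0.13, and the 54 outside it had a median of -0.33, with 44 below 0. Over all measured probes the medians were -0.04 in the corner and -0.02 outside it, with 55.5% and 55.2% below 0. None of the 4 probes past 2-fold lay in the corner, and the median ratio of the spots around each was between -0.06 and -0.00. With the median of the surrounding spots subtracted from each probe, the median of the EIF probes was -0.22. The count past 2-fold was again 4, but EIF4A1 (-1.001) took the place of EIF5A (-0.95).

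**Figure D5:**
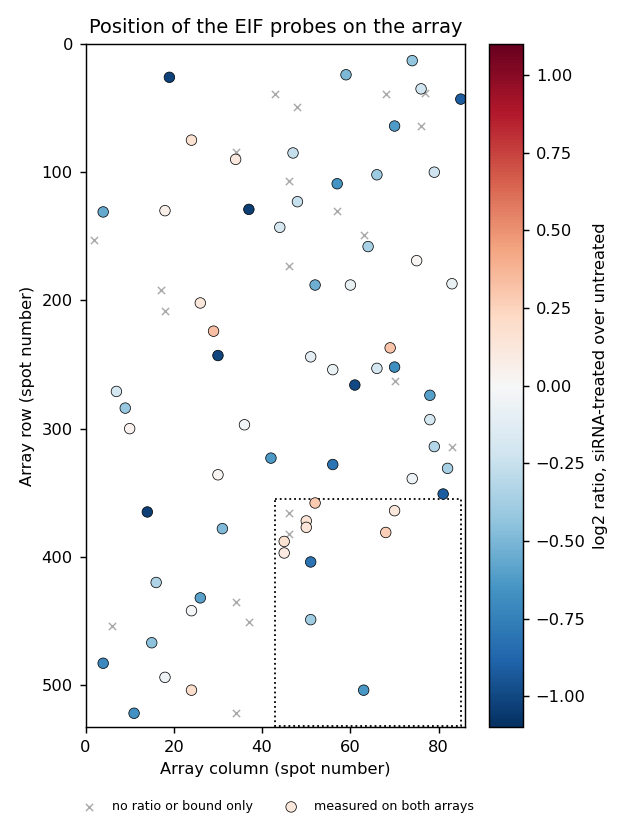
Position of the EIF probes on the array by row and column, with the log2 ratio of the measured ones as colour and grey crosses for probes with a bound or no ratio. The dotted frame is the corner with the larger share of ratios past 2-fold, higher and lower, over all probes. Probes with low ratios lie across the array, and the 4 measured EIF4B probes lie in the frame.

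The rest of the translation machinery was looked at through a list of 43 related genes, of which 37 were measured at 59 probes. In this list 38 of 59 probes were below 0, the median was -0.14, 0 probes were at least 2-fold higher and 3 were at least 2-fold lower, against 55.2% of all measured probes below 0, 1.28% higher and 0.933% lower. The 3 were DDX3X, a helicase that works on structured leaders, at 6615 and 2930 (-1.21), MCTS1, a factor of reinitiation and recycling, at 1290 and 592 (-1.16), and EEF1E1, a protein of the tRNA synthetase complex, at 112 and 55.3 (-1.05). Other DDX3X probes had -0.84, -0.80 and -0.10. The elongation factors in the list had a median of -0.14 over 19 measured probes, with 12 below 0. EEF2, which moves the ribosome along, had 57329 and 61415 (0.06), and EEF1G had 49009 and 51108 (0.03) at its brightest probe. EEF1A1, which brings the aminoacyl-tRNA, had 36224 and 33755 (-0.14) and 10276 and 6052 (-0.80) at its bright measured probes, and another was saturated. EEF1D, an exchange factor for EEF1A, had 37876 and 33589 (-0.21) at its brightest probe. PCID1 (EIF3M), an eIF3 subunit filed under another name, had 24568 and 20041 (-0.33). The median of the list was 0.02 after quantile normalization, and -0.0005 with the median of probes of like brightness subtracted, so its size and direction depended on the processing, while the median of the EIF probes was below 0 under each of 14 settings, from -0.58 to -0.19.

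Promoter sequence was compared with the ratios by the motif CACGTG, the E-box bound by MYC and related factors and known from the EIF4E promoter. The motif reads the same on both strands. In RefSeq windows of 300 bases, 250 before and 50 after the start of a transcript (GRCh38.p14), 7.26% of 35116 promoters held it. It was found in 9 of 54 promoters of 40 EIF genes (16.7%), those of EIF1B, EIF2AK2, EIF2B3, EIF3S12, EIF3S5, EIF4B, EIF4E, EIF4G1 and EIF5A2. At the brightest probe the median log2 ratio was -0.35 over 8 measured genes with the motif, 5 of them below 0, with a range of -0.63 to 0.33. Over 26 genes without it the median was -0.35, 20 were below 0, and the range was -1.04 to 0.19. No relation of motif and ratio was tested. Windows of EIF4E, EIF4G1 and EIF5A2 held the motif 2 times each. The EIF4E window is printed, with the motif in capitals.
EIF4E (GRCh38.p14, chr4:98929084-98929383, minus strand): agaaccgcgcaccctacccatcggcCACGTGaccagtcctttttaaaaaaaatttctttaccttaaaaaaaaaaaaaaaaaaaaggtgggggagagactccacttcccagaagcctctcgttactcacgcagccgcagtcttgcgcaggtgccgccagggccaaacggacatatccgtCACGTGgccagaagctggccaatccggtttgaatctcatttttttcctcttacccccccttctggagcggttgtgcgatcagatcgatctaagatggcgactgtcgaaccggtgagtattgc

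Each array held 43376 transcript spots of 41000 probes. Of the spots 70.4% were well above background in the untreated and 68.0% in the treated cells, and of the EIF probes 81.2% and 77.7%. The Ep-CAM probe itself had 15.6 and 12.0 and did not rise well above background in either condition, so the silencing could not be checked here. Of 11 photoreceptor genes that mark retinoblastoma, 4 were measured (ARR3, CRX, GNGT2 and OTX2), each with a signal under 100, with the sum over the list at 360 in the untreated and 297 in the treated cells, and RCV1, NRL and NEUROD1 were dim on both arrays. Of 13 marker genes of other cells 11 were measured, with a sum of 4171 and 3786. Among them were the lymphoid genes CD79A (1540 and 1456) and CD3E (815 and 749 at its brightest probe). PTPRC, another gene of this list, was dim on both arrays at 1 probe. Its other probe had a weak signal and a log2 ratio of 0.15. The only probe of the list past 2-fold belonged to KRT14 (-1.88), whose other probe had -0.28. Whether other cells were present was not tested. The part of these levels in the EIF ratios was not tested.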

How the data were processed

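Human Y79 RNA was labelled with Cy3 and hybridized to one-color Agilent whole-genome arrays, 1 per condition, and the grouping follows the sample labels. The authors made the deposited spot intensity values with Agilent Feature Extraction (9.5.3.1 in the file header). The deposited signal is background-subtracted and was not scaled between arrays. Without outlier spots, the signals of an array were divided by the 50th percentile of its transcript spots, floored at 0.01 and put on the log2 scale, and repeated spots were averaged. A probe was taken as well above background if 50% or more of its spots were flagged so. A probe dim on 1 array gives a bound, except where the limit for the dim array lies above the other value (1 EIF4B probe), and one dim or saturated on both gives no ratio. The lowest signal well above background was 14.9 in the untreated and 17.5 in the treated array.

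The genes, lists and alternatives were chosen with earlier results of these data known. Every gene with a probe past 2-fold, with a very bright probe, with probes that disagree by more than 0.5, or next to the limit was to be named with its values. The value table of the series held the raw median intensity and was used as an alternative. Current symbols are from RefSeq (GRCh38.p14), in which 82 of 85 probe accessions were found. The ratio code was run on the untreated array and a noisy copy of it with planted changes. These were much larger than 2-fold, so the run does not check calls near the limit. Python 3.11.15 and pandas 2.3.3 were used, also for quantile normalization, and limma 3.58.1 in R 4.3.3 was used for normexp. Precision is limited by there being 1 array per condition.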

Additional observations from a re-analysis of the deposited data

How the results depend on the processing

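The count of EIF probes at least 2-fold lower, 4 as reported, was 0 after quantile normalization, 21 after normexp background correction, 2 with the value table of the series, 7 with no filter on dim probes, 7 at the limits of 1.5 and 0.55, and, in settings chosen after seeing the data, 2 after normexp without spots dimmer than their background and 2 after subtraction of the median of the brightness class. With the value table these were 3.03% of the EIF probes, against 0.274% of all probes. With no filter the shares were 8.43% and 2.49%, and at the limits of 1.5 and 0.55 they were 10.6% and 1.7%. After normexp without spots dimmer than their background they were 3.03% and 0.261%. The count of higher probes was 0 under all 15 settings. The median log2 ratio of the EIF probes, -0.26 as reported, was -0.58 after normexp, and less the median of all probes it lay between -0.38 and -0.16 over 14 settings. In the related list, the count of lower probes, 3 as reported, was 5 after normexp and 5 with no filter, that of higher probes was 1 with no filter and 1 at the limits of 1.5 and 0.55, and the median, -0.14 as reported, was 0.021 after quantile normalization, -0.0005 less the median of the brightness class and -0.52 after normexp. The cause was not tested. Of 14 settings, EIF2S1 was past 2-fold in 13, EIF1AY in 11, EIF4E3 in 10, EIF5A in 7 and EIF4A1, not past it as reported, in 4. Several settings left these ratios exactly as reported. They were a floor of 5 on the signal, a looser or stricter filter on dim probes, and leaving out the corner or the Argonaute genes. Keeping outlier spots hardly moved them. The counts are therefore not 14 separate checks of a call. None of the 11 probes followed singly changed direction under these settings.

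No paired analysis was possible because there was 1 array per condition, and for the same reason none was left out in turn. The 16 EIF probes not well above background on either array cannot show a change, nor can the 2 that were saturated.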
